A study of Mus musculus with 8 samples.

Results

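The comparison described here was between olfactory bulbs of mice reared in an enriched cage and of mice reared in a standard cage, both kept in clean air (EE-C against C-C). Its members were all genes of a whole-genome mouse array other than controls, read through 1 or more probes each. Of 23514 gene symbols on the array, 16544 could be compared, through 32735 of 55681 probes that gave a signal well above background and free of outlier flags on all 4 arrays. Counts below are of probes unless genes are named, since some probes carry no gene symbol. A further 350 probes passed but lie only in the corner of array EE-C 1 in rows above 310 and up to column 12, where readings were low, and they are given apart. The series holds 8 arrays in all, the other 4 being from bulbs of mice exposed to diesel exhaust in the same cages (C-DE and EE-DE).

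All mice were male C57BL/6J, and the bulbs were taken at 56 days of age, 1 day after the last exposure. The standard cage had a volume of 7500 cm3. The enriched cage was larger, at 19000 cm3, and was furnished with a shelter, a wheel for exercise, tubes and pieces of wood. Dams entered their cages at gestational day 14, so pups were born into them, and pups were weaned at postnatal day 27. From postnatal day 28 to 55, both groups spent 8 h per day in exposure chambers supplied with clean air, so the controls carried the chamber stay as well. Each group was 1 pool of bulb RNA from several mice, each from a different cage, and by the study's account this pool was divided over 2 arrays. Read so, the arrays are technical duplicates, no spread between mice was measured and no test between the housing conditions is possible. The EE-C arrays differed from each other in whole groups of genes, described below, and whether they held the same RNA was not tested, so each EE-C mean and duplicate difference rests on that account. The 4 arrays shared 1 slide, on which both C-C arrays occupied one column and both EE-C arrays the other, so housing and slide column cannot be told apart.

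The olfactory bulb receives the axons of olfactory sensory neurons from the nose and passes odor information on through mitral and tufted cells. Dopaminergic and GABAergic interneurons shape that output, and new interneurons join throughout life from neuroblasts that migrate from the wall of the lateral ventricle. Environmental enrichment is known for its effects on activity-dependent genes, trophic factors and the survival of new neurons in the brain.

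Levels are given as the log2 of the processed intensity relative to the 75th percentile of each array, so 0 is the 75th percentile and a probe at -4 is dim. A fold change is the log2 difference between the mean of the 2 EE-C arrays and the mean of the 2 C-C arrays. Since each EE-C array can be set against each C-C array, every change also has a range over 4 pairings. Levels of different probes are not comparable, and none is compared here. In a bulk pool, fewer cells of a type and less RNA per cell cannot be told apart.

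Few probes differed 1.5-fold between EE-C and C-C, and most of those were dim. At 1.5-fold on the mean, 476 of 32735 probes were called, which is 1.45% of the probes. Of these, 222 (0.678%) were higher and 254 (0.776%) were lower in EE-C. With another background correction (normexp) only 88 probes were called, and the share that was higher in EE-C was 59.1% in place of 46.6%. This correction adds an offset of 50 to every signal, which makes changes of dim probes smaller, so losing dim calls is partly built into it. The median change over all probes was 0.00 and 90% of the probes lay between -0.31 and 0.27. Among 11942 probes with a level above 0, only 17 were called, and 293 of the called probes were among the 6133 probes with a level below -4.

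More probes differed 1.5-fold between duplicate arrays than between the pools, though a fold change averages 2 arrays and a duplicate difference does not. The C-C duplicates were at least 1.5-fold apart for 900 probes and the EE-C duplicates for 1312 probes. The SD of the difference between duplicates was 0.23 for C-C and 0.29 for EE-C, beside an SD of 0.20 for the fold change. Of the called probes, 61.6% had duplicates at least 1.5-fold apart in either pool, compared with 6.19% of all probes. A stricter reading, 1.5-fold in the same direction in all 4 pairings, left 39 probes (0.119%), 14 higher (0.0428%) and 25 lower (0.0764%), of which 15 carried a gene symbol. With normexp this reading left 3, 1 higher and 2 lower. Position on the array moved with the direction of the calls. In the rows up to 192, 142 probes were higher and 92 lower, while in the rows beyond it 80 were higher and 162 lower. Centering each array within blocks of the array, an alternative chosen after seeing the data, gave 478 called probes and 38 in all pairings.

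**Figure D1:**
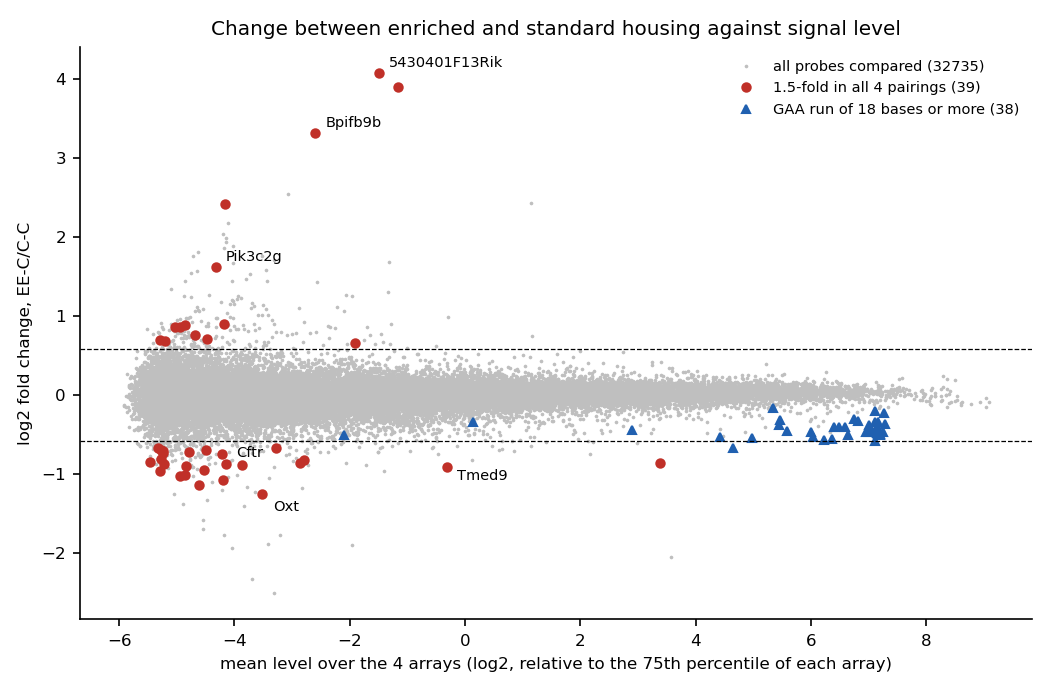
Each grey point is 1 of the 32735 probes, with the mean level over the 4 arrays on the horizontal axis and the log2 fold change of EE-C over C-C on the vertical axis; dashed lines mark 1.5-fold. Red points are the 39 probes past 1.5-fold in all 4 pairings, nearly all to the left of 0, and blue triangles are the 38 probes with a run of repeated GAA of at least 18 bases, all below 0.

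Neurohypophysial hormone genes stood out among the probes that fell. Oxt, the precursor of oxytocin, is read by a probe at chr2:130402665-130402724 (plus strand) of mm9, the build named in the array files. Its level was -2.37 and -3.40 on the C-C arrays and -4.07 and -4.21 on the EE-C arrays. Both C-C arrays were above both EE-C arrays, and the change was -1.26 with a range of -1.84 to -0.67. Avp, the precursor of vasopressin, which is made in the hypothalamus and in some bulb neurons, lies beside it on chromosome 2, with its probe between 130406552 and 130406817 on the minus strand. Its level was -3.37 and -5.03 on the C-C arrays and -5.59 and -5.56 on the EE-C arrays, a change of -1.38 with a range of -2.22 to -0.53. Array C-C 1 was the highest for both hormones. Without it, the change was -0.74 for Oxt and -0.54 for Avp. With normexp the changes were -0.69 and -0.39. Under diesel exhaust, the C-DE arrays read -4.06 and -4.10 for Oxt and the EE-DE arrays -3.88 and -3.90, which is the level of EE-C, and the change was 0.19. Of the 19 neuropeptide precursors compared, Oxt and Avp were the 2 past 1.5-fold, beside 0.937% of all genes, and the list median was 0.03. Penk, Npy, Sst, Vip, Trh and Cartpt, all peptides of bulb or forebrain neurons, changed by 0.03, 0.00, 0.08, 0.01, 0.05 and 0.12.

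The pituitary hormones prolactin and growth hormone, chosen after their values were seen, were also lower in EE-C, most of all on array EE-C 2. Prl read -2.84 and -2.11 on the C-C arrays and -3.09 and -5.65 on the EE-C arrays, a change of -1.89, or -0.61 without EE-C 2. Under diesel exhaust, Prl read -2.82 and -2.59 on the C-DE arrays and -3.32 and -4.32 on the EE-DE arrays, a change of -1.12. All 4 enriched-cage arrays were thus below all 4 standard-cage arrays for Prl, though the nearest of them differed by only -0.25. Gh read -3.57 and -2.51 on the C-C arrays and -3.87 and -6.79 on the EE-C arrays, and the difference of EE-C 1 alone from the C-C mean was -0.83. It was not well above background on EE-C 2 and so was not among the probes compared.

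Cftr, a chloride channel of epithelia, and Tmed9, a cargo receptor between endoplasmic reticulum and Golgi, were lower in EE-C in all pairings. Cftr read -3.59 and -3.83 on the C-C arrays and -4.55 and -4.61 on the EE-C arrays, a change of -0.87 with a range of -1.02 to -0.72. The duplicates were close, but with normexp the change was -0.37, below 1.5-fold. Under diesel exhaust the change of Cftr was -0.11. One probe of Tmed9 read 0.16 and 0.12 on the C-C arrays and -0.55 and -0.99 on the EE-C arrays, a change of -0.92. The other Tmed9 probe read 4.66 and 4.57 against 4.38 and 4.34, a change of -0.25, so the probes of this gene agreed in direction and not in size. The remaining named genes that fell in all pairings were Usp27x, an X-linked ubiquitin protease, at -0.70 and the uncharacterized transcripts 1600022D10Rik, 9430076C15Rik, E230019M04Rik, C030044M21Rik and Gm11159, between -1.14 and -0.67. All of them had levels below -2. With normexp none of these 6 reached 1.5-fold, and their changes lay between -0.39 and -0.18.

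Klb, Pik3c2g and Bpifb9b were higher in EE-C in all pairings. Klb, the co-receptor beta-klotho for endocrine fibroblast growth factors, read -4.79 and -4.88 on the C-C arrays and -4.06 and -4.19 on the EE-C arrays. The change was 0.71 with a range of 0.61 to 0.81, and it was 0.48 between the diesel exhaust pools. With normexp it was 0.32, below 1.5-fold. Pik3c2g, a class II phosphoinositide kinase, read -5.59 and -4.68 against -3.06 and -3.98, a change of 1.62, and 0.56 with normexp, below 1.5-fold. Between the diesel exhaust pools it changed by 0.06. Its other probe read -5.70 and -5.65 on the C-C arrays and -5.39 on EE-C 2 and was not compared, since its spot on EE-C 1 lies in the low corner. Olfr598 (0.68), an odorant receptor, and 4933411K16Rik (0.70) were also higher in all pairings, and with normexp they changed by 0.15 and 0.20. Their changes between the diesel exhaust pools were 0.37 and 0.03.

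Bpifb9b, which encodes a secreted BPI-fold protein of the nasal and oral epithelia, differed between the pools in opposite directions in clean air and in diesel exhaust. It read -4.92 and -3.60 on the C-C arrays and -0.24 and -1.67 on the EE-C arrays, a change of 3.31 with a range of 1.93 to 4.69, and 2.12 with normexp. The diesel exhaust arrays read -0.32 and -3.20 for C-DE and -4.92 and -4.37 for EE-DE, a change of -2.88. The C-DE duplicates lay far apart. The corner probe of Bpifb3, a gene of the same family, read 1.32 and 0.17 on the C-C arrays and -1.31 on EE-C 2.

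**Figure D2:**
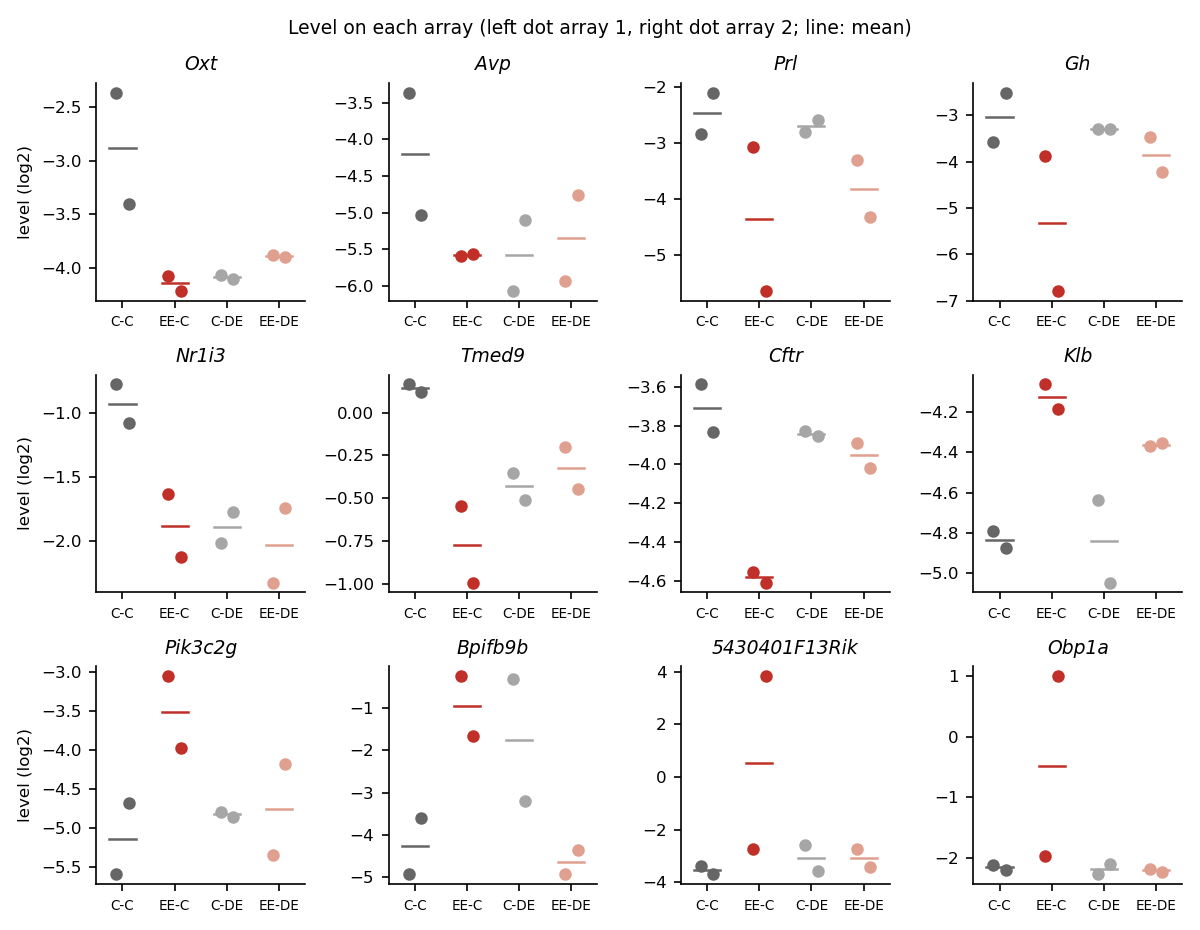
Level on each array (log2, relative to the 75th percentile of the array) of 12 genes in the 4 groups; the left dot of a group is array 1, the right dot array 2 and the line their mean, and each panel has its own vertical axis. Oxt is highest on C-C 1, the EE-C dots of Cftr lie below and those of Klb above all other dots, and 5430401F13Rik and Obp1a are high on EE-C 2 alone.

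Arrays of the same pool differed in whole groups of genes. On array EE-C 2, genes for odorant carriers of glandular secretions were high. The family, chosen after seeing the values, was all 28 probes for the 23 lipocalin (Lcn), major urinary protein (Mup) and odorant-binding protein (Obp) genes named on the array. A reading under the dimmest signal that was well above background on its array was raised to that signal, so that folds are lower bounds. On EE-C 2, 9 of these 28 probes, for 7 genes, were then at least 8-fold above all 3 other arrays, and on each of C-C 1, C-C 2 and EE-C 1 the number was 0. Of the 9, 7 were not well above background on any of the other 3 arrays. The 9 probes lay between rows 77 and 345 and columns 14 and 164, so they were spread over the array. Mup probes share much of their sequence, so these are fewer genes than probes. Mup19 read -4.55 and -4.84 on the C-C arrays, -4.76 on EE-C 1 and 0.17 on EE-C 2. Lcn13 read -8.35, -8.25 and -8.24 on the same 3 arrays and 0.03 on EE-C 2, and Mup20 read -8.38, -6.38, -7.14 and 0.42. Obp1a, an odorant-binding protein of nasal glands, read -2.12, -2.20, -1.97 and 1.00. For the 9 probes, no array of the diesel exhaust pools was above -4.45.

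Among the probes compared, the highest change of a named gene came from the same array. 5430401F13Rik read -3.38 and -3.69 on the C-C arrays, -2.76 on EE-C 1 and 3.84 on EE-C 2. The mean change was 4.07, and its range over pairings ran from 0.62 to 7.52. Over all noncontrol probes, 72 stood at least 8-fold above the other 3 arrays on EE-C 2, 68 on EE-C 1, 35 on C-C 1 and 21 on C-C 2, where those other arrays lay within 2-fold of each other, with dim readings raised in the same way. Most of them did not pass the filter, since only 7, 7, 6 and 1 of them were among the probes compared.

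Genes of the olfactory mucosa followed the arrays and not the pools. These genes mark supporting cells and glands of the nasal epithelium, and their part in other results was not tested. Of 17 such genes 12 were compared, 11 were lower in EE-C, and 2, Cyp2g1 and Sec14l3, passed 1.5-fold (0.937% of all genes), with a list median of -0.29 beside 0.01 for all genes. Cyp2g1, a cytochrome of the olfactory epithelium, read 1.44 and 0.44 on the C-C arrays and 1.27 and -0.79 on the EE-C arrays. The median difference between duplicates was -0.84 for C-C and -1.31 for EE-C, larger than the difference between the pools, and the list median ran from -1.31 to 0.75 over the pairings. Without EE-C 2, Cyp2g1 was 0.34 higher in EE-C and Sec14l3 0.18 higher. In the diesel exhaust pools the list median was 1.59, with all 12 genes higher in EE-DE.

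Olfactory sensory neuron genes also differed between duplicates, by medians of -0.27 in C-C and -0.21 in EE-C. Of 12 compared, 4 were higher and 8 lower in EE-C, with a median of -0.08. Between the diesel exhaust pools the list median was 0.49, with all 12 genes higher in EE-DE. Omp, the marker of mature sensory neurons, read 6.15 and 5.92 on the C-C arrays and 6.12 and 6.02 on the EE-C arrays, a change of 0.04. Umodl1 (-0.71) and Rtp1 (1.14), a receptor transporter, passed 1.5-fold. Umodl1 read -0.20 and -1.01 on the C-C arrays and -0.69 and -1.94 on the EE-C arrays, so its pools overlapped. Rtp1 read -3.70 and -4.46 on the C-C arrays and -1.28 and -4.60 on the EE-C arrays, and without EE-C 1 its change was -0.52. Odorant receptors passed the filter for 203 of 1101 genes, 124 of them higher in EE-C, with a median of 0.08. Of the 203, 7 passed 1.5-fold upward and 5 downward, beside 0.937% of all genes and, since the median level of these receptors was -4.53, 4.77% of the probes with a level between -5 and -4. Olfr598 alone did so in all pairings. Olfr259, with the highest change (1.04), read -4.40 and -4.88 on the C-C arrays and -2.40 and -4.81 on the EE-C arrays, so it was carried by EE-C 1. Olfr1247 (0.80), Olfr372 (0.80), Olfr843 (0.72), Olfr1148 (0.66) and Olfr237-ps1 (0.66) were the others that were higher. Olfr536 at -0.73 was carried by EE-C 2, and without it its change was 0.08. Olfr100 (-0.68) was carried by EE-C 1. It read -4.18 and -4.76 on the C-C arrays and -5.66 and -4.64 on the EE-C arrays, with a range of -1.48 to 0.12. Olfr460 (-0.66), Olfr1500 (-0.65) and Olfr494 (-0.59) were the others that were lower.

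Markers of blood and bone, which are not cells of the bulb itself, also moved with single arrays. Of 11 neutrophil and marrow genes, 10 were higher in EE-C and 2 passed 1.5-fold, beside 53.6% and 0.937% of all genes, with a median of 0.27 that ran from -0.38 to 1.08 over the pairings. Mpo, the granule enzyme myeloperoxidase, read -3.35 and -3.81 on the C-C arrays and -1.96 and -3.62 on the EE-C arrays, and without EE-C 1 its change was -0.04. Chi3l3, a chitinase-like protein of myeloid cells, read -2.85 and -2.70 on the C-C arrays and -1.62 and -2.68 on the EE-C arrays, a change of 0.63. The EE-C duplicates differed by a median of -1.31 in this list. Between the diesel exhaust pools its median was 0.68, with all 11 genes higher in EE-DE. Among 13 bone genes, Bglap (-0.64) and Bglap2 (-0.59), which encode osteocalcin, passed 1.5-fold. Bglap read -1.43 and -2.51 against -2.23 and -3.00, so its 2 pools overlapped, as did those of Bglap2, which read 1.56 and 0.66 against 0.86 and 0.18. With normexp none of these 4 genes reached 1.5-fold, with 0.53 for Mpo, 0.54 for Chi3l3, -0.40 for Bglap and -0.50 for Bglap2. The 6 red blood cell genes had a median of 0.04.

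A sequence feature of the probes, a run of the repeated bases GAA, went with lower readings in EE-C. The 38 probes whose longest run had at least 18 bases had a median change of -0.44, and all 38 were lower in every pairing. Among the 32564 probes with a run under 9 bases, the median was 0.00 and 18.3% were lower in every pairing. Runs of 12 to 14 bases (14 probes) had a median of -0.44 and runs of 15 to 17 bases (7 probes) one of -0.45, while the 112 probes with 9 to 11 bases had a median of 0.00. This feature was noticed in the data. Windows of 30 bases from both kinds of probe of 2 genes show the contrast, with the run in capitals, as the array files give the probe sequence from 5′ to 3′.
Rhox8, repeat probe: GAAGAAGAAGAAGAAGAAGAAGAAGAAGAA
Rhox8, other probe: cacccccctctctcatttgcaataaagtga
Ermn, repeat probe: cgagGAAGAAGAAGAAGAAGAAGAAGtttg
Ermn, other probe: ctacctacctgctgttaaataaagaatttc

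The probes of 1 gene gave different answers according to this feature. Ermn encodes ermin, a cytoskeletal protein of myelinating cells. Its repeat probe changed by -0.53, with a range of -0.69 to -0.37, while its other probe changed by 0.10. The repeat probe of Pnma2 read 2.73 and 2.43 on the C-C arrays and 2.09 and 2.19 on the EE-C arrays, while its other probe read 2.12 and 2.21 against 2.48 and 2.13. The repeat probe of Rhox8, a homeobox gene of the reproductive tract, read 7.50 and 7.30 against 6.78 and 6.85, a change of -0.58, and its other probe changed by 0.07. In all 8 genes with both kinds of probe, namely Akap7, Dcc, Ermn, Gab3, Pnma2, Rhox8, Sec61b and Trpm1, the repeat probe had the lower change. The medians were -0.45 for repeat probes and 0.07 for the others. Only 1 of the 38 probes passed 1.5-fold, so the feature added little to the count of calls, which was 469 without all probes with a run of at least 12 bases.

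Among bright probes, repeat probes made up most of the steady falls. Of 15197 probes with a level above -1, 22 were lower by at least 0.35 in every pairing, and 16 of these (72.7%) had a GAA run of at least 9 bases, compared with 0.763% of the bright probes. The others included Tmed9, Thoc2, Lrrc55 and Celf3. Of the 6 bright probes that were higher by as much in every pairing, none had such a run, and Ifit3 and Cyp17a1 (0.51), an enzyme of steroid synthesis, were among them. Probes with at least 75% purines had a median of -0.34, with 98 of them lower. Among repeats of 3 bases over at least 9 bases, AGG had the lowest median, -0.14 with 66 of 86 probes lower, followed by GAA at -0.09 over 171 probes, while the 65 probes with a CCT repeat had one of 0.11. In the diesel exhaust pools the 38 long-run probes had a median change of -0.19. By array, their median deviation from the mean over the series was 0.38 and 0.12 on C-C 1 and C-C 2, -0.23 and -0.14 on the EE-C arrays, -0.03 and 0.15 on the C-DE arrays and -0.17 and -0.09 on the EE-DE arrays. What sets these readings was not tested.

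**Figure D3:**
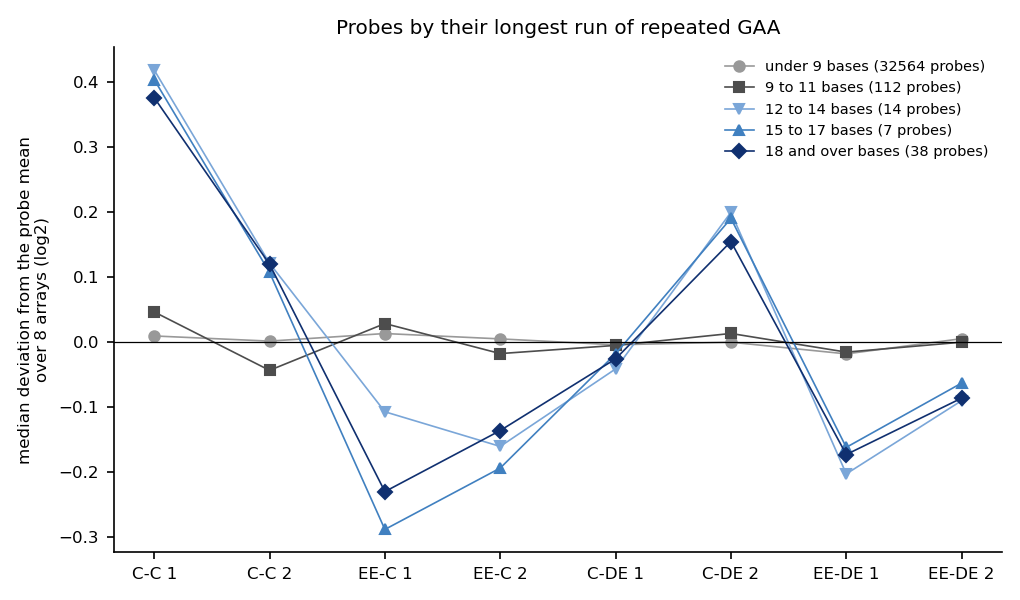
Median deviation of probes from their own mean over the 8 arrays (log2, vertical axis) on each array (horizontal axis), for 5 classes of the longest run of repeated GAA; lines only join the points of a class. The classes from 12 bases upward lie above 0 on both C-C arrays and below 0 on the 4 enriched-cage arrays, and the classes under 12 bases stay near 0.

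Probes above background in 1 pool only were counted apart, since they cannot pass the filter. There were 322 of them, 152 well above background on both EE-C arrays and neither C-C array, and 170 the other way round. Readings under the dimmest signal that was well above background on an array were raised to that signal. The change is then a lower bound, and it reached 1.5-fold for 46 and 41 probes. Gm14743 was at least 13.5-fold higher in EE-C, with levels of -5.72 and 0.96, again through EE-C 2. Zscan4c, a gene of early embryonic cells, was at least 3.02-fold higher, with levels of -3.08 and -5.68, Olfr1414 at least 2.88-fold and Hoxa6, a homeobox gene, at least 2.57-fold. A probe of Ndufb5, a subunit of respiratory complex I, gave at least 4.63-fold through EE-C 1 (-2.12, with -5.70 on EE-C 2). Lower in EE-C were Tmem30c, at least 2.18-fold, and Pdcd1, the T cell receptor PD-1, at least 2.14-fold. Spag11b and Defb33, defensin-like genes of the male tract, were at least 1.94-fold and 1.82-fold lower. Gm10394 was 1.83-fold lower, and none of its readings was raised.

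Genes of the bulb itself differed little. Of 28 gene lists for cell types and pathways, 22 had no member past 1.5-fold and 21 had a median within 0.1 of 0. Apart from odorant receptors, 10 of the 364 listed genes compared passed 1.5-fold, 3 upward and 7 downward, beside 0.937% of all genes (155 of 16544). The direction turned with the array left out, being 7 upward and 1 downward without C-C 1 and 13 and 3 without EE-C 2, but 3 and 20 without C-C 2 and 4 and 23 without EE-C 1. The 10 were Oxt, Avp, Rtp1, Umodl1, Cyp2g1, Sec14l3, Mpo, Chi3l3, Bglap and Bglap2. The 10 dopaminergic genes had a median of 0.01, and Th, the rate-limiting enzyme of dopamine synthesis, read 5.49 and 5.46 on the C-C arrays and 5.51 and 5.50 on the EE-C arrays. Genes of GABAergic interneurons had a median of 0.02 (13 genes) and those of mitral and tufted cells one of 0.03 (10 genes). Reln (-0.21), secreted by mitral cells, and Etv1 (-0.14), a factor of periglomerular neurons, had the largest absolute changes in their lists besides Nr4a2 (0.19). Among 34 glutamate and GABA receptor subunits, the median was -0.02, with 6 higher and 7 lower in every pairing, beside 20.5% and 16.7% of all genes. The largest changes were those of Gabra2 (-0.32) and Gabra3 (-0.30).

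Genes linked to enrichment, new neurons and division were also near 0. Growth factors and their receptors (16 genes) had a median of -0.02 and ranged from -0.12 to 0.21. Bdnf read -0.28 and -0.15 on the C-C arrays and -0.22 and -0.29 on the EE-C arrays, so the pools overlapped. Vegfa changed by -0.11, Igf1 by -0.06 and Kdr, a receptor of endothelial cells, by 0.21. The 10 neuroblast genes had a median of 0.00, with Dcx at -0.13 and Prokr2, a receptor for migrating neuroblasts, at -0.20. Genes of dividing cells (15 compared) had a median of 0.01, with Mki67 at 0.09. Medians were -0.03 for astrocytes, -0.05 for myelin, 0.01 for endothelium and 0.05 for microglia. With 1 pool in each group, these values do not show that the groups were alike.

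Activity-dependent and stress-linked genes were mostly a little higher in EE-C. Of 18 immediate early genes, 16 were higher, with a median of 0.15, but the median ran from -0.07 to 0.51 over the pairings and only 2 genes were higher in all of them. Fos read 1.46 and 0.76 on the C-C arrays and 1.28 and 1.64 on the EE-C arrays. Atf3 (0.44) and Btg2 (0.44) were the 2 above both C-C arrays on both EE-C arrays. Of 14 glucocorticoid-responsive genes, 13 were higher, with a median of 0.09, led by Map3k6 (0.36) and Sult1a1 (0.27). For all 16544 genes, 53.6% were higher in EE-C and 20.5% were higher in every pairing.

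No clock gene passed 1.5-fold, but Gm129 and Arntl differed between the pools with close duplicates. Gm129, also named Ciart, is a repressor of the circadian clock, and it read -2.65 and -2.66 on the C-C arrays and -2.12 on both EE-C arrays. The change was 0.53, with a range of 0.52 to 0.54, just short of 1.5-fold. Under diesel exhaust the standard-cage arrays read -2.70 and -2.46 and the enriched-cage arrays -2.14 and -2.05. Of 9 clock genes of this phase, Gm129 included, 8 were higher in EE-C and 4 in every pairing (20.5% of all genes), among them Nr1d2 (0.24) and Nr1d1 (0.19), and the median was 0.08. Arntl, which peaks in the opposite phase, read 1.26 and 1.21 on the C-C arrays, 0.90 and 1.06 on the EE-C arrays, and 1.27, 1.28, 1.07 and 0.98 on C-DE 1, C-DE 2, EE-DE 1 and EE-DE 2. Of the 5 clock genes of the opposite phase, 4 were lower in EE-C and 2 in every pairing, beside 16.7% of all genes lower in every pairing, with a median of -0.05 and changes from -0.25 to 0.18. For 4 of the 14 clock genes, Gm129 and Arntl among them, all enriched-cage arrays lay on 1 side of all standard-cage arrays, beside 7.48% of the probes that passed the filter on all 8 arrays. Of the 8 clock genes of the phase of Gm129 with a RefSeq promoter (250 bases before to 50 after the start), 4 hold the E-box letters CACGTG in at least 1. Over 32851 promoters, counted singly and not by gene, the share is 7.15%. The window of Ciart is shown with these letters in capitals, from chr3:95882315-95882364 of GRCm38.p6, minus strand.
Ciart: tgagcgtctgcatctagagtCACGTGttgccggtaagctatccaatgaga

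Of the lists whose median lay on 1 side of 0 in every pairing, the interferon response had the median farthest from 0. These genes are switched on by type I interferon and serve antiviral defense. Of 30 genes 29 were compared, and 24 were higher in EE-C with a median of 0.16. Of the 29, 17 were higher in every pairing and 1 was lower in every pairing, beside 20.5% and 16.7% of all genes, and the list median ran only from 0.12 to 0.22 over the pairings. None passed 1.5-fold. Over 18 settings, leaving out each array included, the list median stayed between 0.13 and 0.19.

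Ifit3, an antiviral RNA-binding protein, read 0.58 and 0.66 on the C-C arrays and 1.11 and 1.08 on the EE-C arrays, a change of 0.48. Cxcl10, a chemokine for T cells, read -1.85 and -2.01 against -1.55 and -1.49, and Oas1a, an oligoadenylate synthetase, -1.06 and -0.95 against -0.44 and -0.68, a change of 0.44. Isg15, a ubiquitin-like modifier, read 1.36 and 1.49 against 1.76 and 1.73, a change of 0.32. In each of these genes both EE-C arrays were above both C-C arrays. Rtp4 changed by 0.35, Usp18 by 0.33 and Oasl2 by 0.31, whereas Mx2 changed by -0.09. Of 12 antigen presentation genes, 11 were higher in EE-C and 7 in every pairing, beside 53.6% and 20.5% of all genes, with a median of 0.11, Psmb8 (0.20) and H2-Ab1 (0.19) leading. Between the diesel exhaust pools the interferon median was 0.03, with 18 of 29 higher in EE-DE, and the C-DE duplicates of Ifit3 read 0.91 and 1.45. The difference between the air conditions was not tested.

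The interferon-stimulated response element was searched as GAAA, 2 bases of any kind and GAAA again on both strands. It occurs in at least 1 promoter of 13 of the 21 list genes that have a RefSeq promoter. Over all 32851 promoters of the same length, counted singly, the share is 3.44%. A gene with several promoters can match through any of them, so these shares are not of the same unit. Windows of leading genes are shown with the letters of 1 match in capitals, on the strand of the gene, from chr19:34583387-34583436 (plus), chr5:92349073-92349122 (minus) and chr5:120907526-120907565 (minus) of GRCm38.p6. In Ifit3 the match is on the opposite strand and reads as its reverse complement, and in Oas1a another match overlaps the one in capitals and ends 6 bases after it.
Ifit3: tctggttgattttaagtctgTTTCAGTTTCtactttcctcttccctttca
Cxcl10: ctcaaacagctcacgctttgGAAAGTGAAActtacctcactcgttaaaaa
Oas1a: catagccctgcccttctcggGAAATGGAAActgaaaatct
A match is a description of these letters and not of a binding site, and it also occurs in genes that changed little, such as Stat2 (0.07) and Igtp (0.02).

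**Figure D4:**
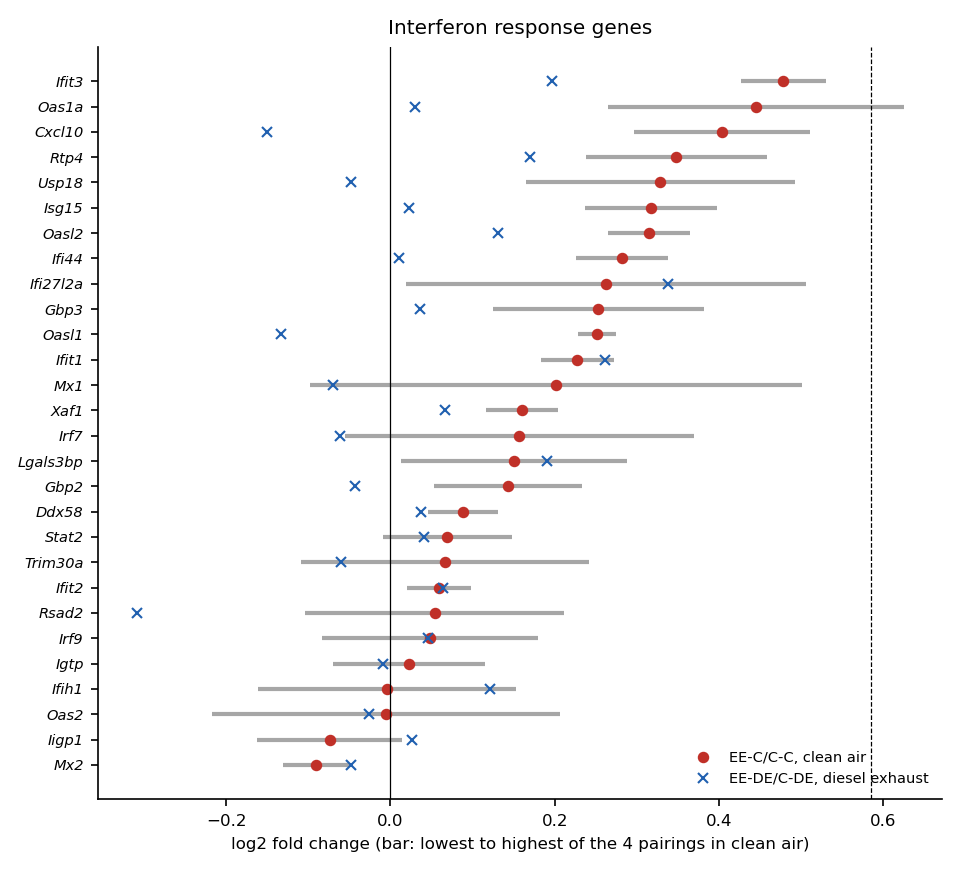
Log2 fold change of EE-C over C-C (horizontal axis) for 28 of the 29 interferon response genes compared, 1 gene to a line. The dot is the mean of the arrays and the bar runs from the lowest to the highest of the 4 pairings. Crosses give the change of EE-DE over C-DE, and the dashed line marks 1.5-fold. Among all 29 genes compared, 17 have a range wholly above 0, from Ifit3 at 0.48 downward, and that of 1 gene, Mx2, lies wholly below 0.

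**Figure D5:**
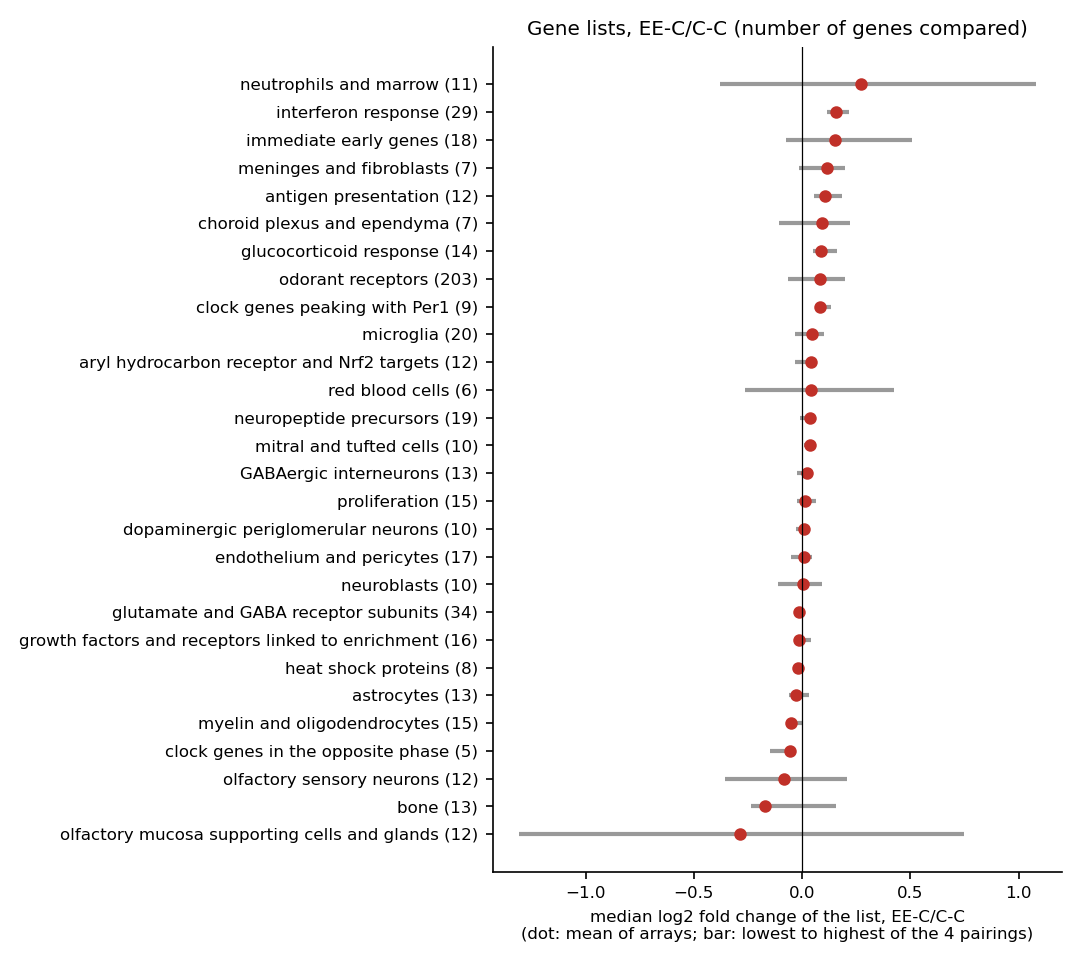
Median log2 fold change of EE-C over C-C (horizontal axis) for 28 gene lists with the number of genes compared in brackets; the dot is the mean of the arrays and the bar the lowest to highest median over the 4 pairings. Bars are widest for neutrophil, mucosa and red blood cell genes, narrow for bulb neurons and glia, and wholly above 0 for the interferon response (0.12 to 0.22) and a few other lists.

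Genes that the study measured by RT-PCR were picked by it from other comparisons of these arrays, so they are no independent choice. Nr1i3, the constitutive androstane receptor, a sensor of foreign chemicals, read -0.77 and -1.08 on the C-C arrays and -1.63 and -2.13 on the EE-C arrays. Its change was -0.96 with a range of -1.36 to -0.56, so 1 pairing fell short of 1.5-fold. In the study's RT-PCR of individual samples, Nr1i3 was marked as different between C-C and C-DE and between C-DE and EE-C. No difference between C-C and EE-C was marked there. The C-DE arrays read -2.02 and -1.78 and the EE-DE arrays -2.33 and -1.74, so the C-C arrays stood above all 6 others. Fam13c read -0.59 and -0.42 against -0.08 and -0.14, a change of 0.40. Chmp4b changed by 0.05 and Sdad1 by -0.06. The other RT-PCR genes Mslnl (-0.50), Umodl1 (-0.71), Aqp3 (-0.32), Cyp2f2 (-0.12) and Krt18 (-0.42) each had a range that crossed 0. Gapdh, the reference gene, has 8 probes on the array, with changes from -0.03 to 0.20. The Y-linked genes Ddx3y and Eif2s3y changed by 0.04 and -0.03, and the Xist probes were well above background on 0 and 1 of the 4 arrays.

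The same housing contrast can be read in the diesel exhaust pools, which share no array and no pool with EE-C and C-C but share the slide columns. There 0.82% of 26964 probes well above background and free of outlier flags on all 8 arrays differed 1.5-fold. Of the 195 probes called in clean air, 113 (57.9%) moved the same way, compared with 60.4% of all probes, and 17 (8.72%) passed 1.5-fold the same way, compared with 0.434% of all probes. Another 12 of the 195 passed 1.5-fold the opposite way. Over all 26964 probes, 104 passed the opposite way and 117 the same way. Only 14 probes called in all pairings passed this filter on 8 arrays, out of 39 over the 4 arrays compared. Of these 14, 8 (57.1%) moved the same way and 1 (7.14%) passed 1.5-fold the same way, beside 60.4% and 0.434% of all probes. The probes that passed both times included Prl, Mpo, Nlrp1a, Bpifb6, Lrriq4 and BC051070, and for each of these except Prl the range over the pairings in clean air crossed 0. Only 2 of the 17 passed 1.5-fold in every pairing of the diesel exhaust pools.

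All 4 enriched-cage arrays lay on 1 side of all 4 standard-cage arrays for 2018 probes, 7.48% of the 26964, with 1077 higher and 941 lower. Only 15 of these differed 1.5-fold on average, 9 higher and 6 lower. The named genes among them were Prl, lower, and Klb, Otog, Ctrc, Inmt and E030025P04Rik, higher. Inmt, an amine methyltransferase, read -1.16 and -1.46 on the C-C arrays, -0.75 and -0.90 on the EE-C arrays, -1.76 and -1.48 on the C-DE arrays, and -1.04 and -0.71 on the EE-DE arrays. Its change was 0.48 in clean air and 0.75 in diesel exhaust. Otog, a protein of inner ear membranes, read -3.98 and -4.79 on the C-C arrays and -3.65 and -3.44 on the EE-C arrays, a change of 0.84, or 0.44 without C-C 2. Its change in diesel exhaust was 0.33, and Ctrc, a pancreatic protease, changed by 0.64 in clean air and 0.54 in diesel exhaust.

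For the 350 probes in the low corner of EE-C 1, only EE-C 2 could be set against C-C. Their median change was -0.32 on EE-C 1 and -0.02 on EE-C 2, and 135 of them were 1.5-fold lower on EE-C 1. On EE-C 2, 4 differed 1.5-fold from the C-C mean and 2 of these from both C-C arrays. Those 2 were Bpifb3, given above, and the unnamed probe A_55_P2030403, which read -5.26 and -5.69 on the C-C arrays and -3.97 on EE-C 2. Lass3, a ceramide synthase, read -3.86 and -3.83 on the C-C arrays, -4.82 on EE-C 1 and -3.25 on EE-C 2.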

How the data were processed

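RNA pools of the olfactory bulb were hybridised by the authors to 1-colour Agilent mouse arrays and read with Feature Extraction 10.7.3.1, as the submitters' processing notes name it. Per the file headers, the deposited intensity is the processed signal, after subtraction of background with spatial detrending, and the array annotation follows mm9. The authors' deposited series table holds log2 values centred for each probe and served as an alternative. The members and gene lists were chosen with earlier results of these data known.

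Each intensity was taken as log2 minus the 75th percentile of the noncontrol spots of its array. Spots of 1 probe were averaged. Probes had to be well above background, with no outlier flag, on all 4 arrays, and spots in rows above 310 and columns up to 12 of EE-C 1 were set aside. The 75th percentile of intensity ranged from 652 to 706 and 68.3% to 70.6% of spots were well above background, and the number of pools limits precision. A gene was represented by its brightest probe. Probes were called at 1.5-fold on the mean of both arrays. Named genes were the 12 highest and 12 lowest symbols past 1.5-fold in all pairings, up to 5 in each direction above background in 1 pool only, list members past 1.5-fold or else the 2 to 4 with the largest change, RT-PCR genes and sex-linked genes. Other genes, such as the well-known markers Th, Omp and Bdnf and the bulb peptides, fall outside this rule and were chosen after their values were seen. In repeats, runs and purines, probe letters were those of the deposited files, and promoters came from RefSeq (GRCm38.p6), matched by symbol. Alternatives were normexp (offset 50) and quantile normalization (limma 3.58.1 in R 4.3.3), other scales, filters and thresholds, and leaving out each array. Scripts (Python 3.11.15, numpy 2.4.6, pandas 2.3.3) were tested on simulated data. No sample of the series table was unmatched. The value of 1 interferon response gene is not reported here, and it stays in the counts and medians of its list.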

Additional observations from a re-analysis of the deposited data

Results flagged for a closer look

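For 2 probes the enriched-cage and standard-cage pools differed in opposite directions in clean air and in diesel exhaust, past 1.5-fold in every pairing. This difference was not tested, since each group is 1 pool. Bpifb9b changed by 3.31 (log2) between C-C and EE-C and by -2.88 between C-DE and EE-DE. The unnamed probe A_55_P2178039 changed by 2.42 and -2.43. Both probes lie on the plus strand of chromosome 2 (mm9), at 154146317 to 154146376 for Bpifb9b and 154144567 to 154144626 for the unnamed probe, so they are near neighbours and may not be separate results. Both probes were well above background on 7 of the 8 arrays, and both were highest on EE-C 1 and C-DE 1. A_55_P2178039 read -2.38 on EE-C 1 and -2.15 on C-DE 1, but -4.64 on C-DE 2, the duplicate of the same pool.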

How the results depend on the processing

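No paired analysis was possible because each group is 1 pool, the numbers only name arrays and no result comes from a test. Counts of called probes depended on the signal filter and background correction. The number called at 1.5-fold (476), the number in all pairings (39) and the numbers with duplicates 1.5-fold apart in C-C (900) and EE-C (1312) became 88, 3, 103 and 225 with normexp, 2252, 322, 3352 and 3910 with any positive and significant signal, 132, 10, 178 and 367 for the brighter 75% of the probes, 199, 15, 297 and 615 with all 8 arrays above background (outlier flags read on the 4 compared), and 216, 16, 423 and 606 for GenBank or RefSeq accessions only. At 2-fold they were 89, 2, 147 and 295, and at 1.3-fold 1791, 236, 2479 and 3513. Listed genes past 1.5-fold (10) were 5 with normexp and 19 with the looser filter. Probes above background in 1 pool only (322) were 136 for accessions only. Leaving out 1 array gave 648 to 1145 called probes (34.5% to 62.8% of them higher), 234 to 650 in all remaining pairings, 906 to 1227 in 1 pool only and 8 to 27 listed genes, with fewer values averaged. At 2-fold no probe called in all pairings was left on 8 arrays, so that result has no value there. Quantile normalization gave 481 called probes, the median of passing probes as the scale 451, the authors' values 461, kept outlier flags 573, kept corner spots 540 and linear means 484.

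Of the 476 called probes, 86 were also called with normexp and 451 with the authors' table. For the 40 genes followed, 626 of 650 values under alternatives lay within 1 SD of the change, worked out from its duplicate differences. The 19 that moved further were all with normexp, whose offset makes changes of dim probes smaller, so that 1 choice moved 19 of the 40 genes. The count of 626 does not measure steadiness. Leaving out 1 array cannot shift a change by more than this SD, and most filters leave the value of a probe as it was. Another 5 values changed sign: with 1 EE-C array left out, Rtp1 ran from -0.52 (without EE-C 1) to 2.80 and Mpo from -0.038 (without EE-C 1) to 1.62, and Cyp2g1 ran from -1.73 to 0.34, Sec14l3 from -1.47 to 0.18 and Olfr536 from -1.54 to 0.083, each positive without EE-C 2. The cause was not tested. Dim probes and the single pool in each group limit what these arrays can show.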
